A study of Mus musculus with 27 samples.

Results

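Fos mRNA differed widely among the B-cell lymphomas that arose in mice with a c-myc transgene at Igh, and the lymphomas with the most were set here against those with the least. The groups were chosen by the measured values: the 19 lymphomas were ranked by the summed TPM of Fos (an abundance corrected for transcript length and library size). The 5 highest formed the Fos-high group and the 5 lowest the Fos-low group, so 10 of 19 lymphomas, and of 27 samples in the series, were compared. Being the basis of the choice, Fos itself was left out of every test.

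All cells were purified for B220, a surface antigen of B cells. The lymphomas came from lung, peripheral or mesenteric lymph node of mice labelled hv, cr or co, names that the labels do not explain. They are identified here by site, line and tumour number. The Fos-high group held lung hv T5, lung cr T16, peripheral node hv T15, lung cr T9 and mesenteric node cr T6. The Fos-low group held peripheral node co T2, mesenteric node cr T20, lung co T30, lung hv T1 and lung co T9. The other 9 lymphomas lay between. For scale, 8 samples of non-malignant splenic B220 cells from wt, hv, cr and co mice were used: 4 resting and 4 given LPS (lipopolysaccharide of bacterial walls) for 2 days. Ages and sexes are not given in the labels, nor do they say which tumours share a mouse; p-values therefore rest on the spread among these samples alone, which may be technical. A transgene under Igh control can drive c-myc in the B lineage, and all 19 lymphomas carried it.

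Fos encodes a subunit of AP-1, a dimeric transcription factor formed by FOS, JUN, ATF and MAF family proteins. Immediate early genes such as Fos, Egr1 and Nr4a1 are transcribed within minutes of a stimulus, through factors already present in the cell (serum response factor with ERK-activated partners, and CREB). Their mRNAs are short-lived. In B cells they respond to the antigen receptor, and in many tissues also to enzymatic digestion, cooling or warming while cells are prepared. Among the products are brakes on the same response: DUSP phosphatases inactivate MAP kinases, and ZFP36 promotes the decay of AU-rich mRNAs.

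The sequences just upstream of Fos and of some genes higher in every Fos-high than in every Fos-low lymphoma are shown first. Those of Klf4, Per1 and Ddit3, which were also without overlap, are not shown. They are the 250 bases before the RefSeq start in GRCm38.p6, written 5′ to 3′ on the gene's strand, with matches to the searched motifs in capitals. Fos lies at chr12:85473640-85473889 on the plus strand. Ppp1r15a (chr7:45526269-45526518), Fosb (chr7:19310046-19310295), Atf3 (chr1:191183334-191183583), Zfp36 (chr7:28379229-28379478) and Dusp1 (chr17:26508473-26508722) lie on the minus strand. They are shown because these genes are the ones whose values the text turns on.
Fos: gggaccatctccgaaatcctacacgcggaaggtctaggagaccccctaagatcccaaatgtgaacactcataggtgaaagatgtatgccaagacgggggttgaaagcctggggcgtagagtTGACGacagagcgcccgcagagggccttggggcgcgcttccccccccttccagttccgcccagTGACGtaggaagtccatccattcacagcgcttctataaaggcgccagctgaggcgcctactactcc
Ppp1r15a: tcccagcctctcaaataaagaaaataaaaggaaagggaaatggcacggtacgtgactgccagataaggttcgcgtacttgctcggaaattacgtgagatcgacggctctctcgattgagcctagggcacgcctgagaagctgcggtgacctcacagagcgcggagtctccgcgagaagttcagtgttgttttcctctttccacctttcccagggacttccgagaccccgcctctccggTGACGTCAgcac
Fosb: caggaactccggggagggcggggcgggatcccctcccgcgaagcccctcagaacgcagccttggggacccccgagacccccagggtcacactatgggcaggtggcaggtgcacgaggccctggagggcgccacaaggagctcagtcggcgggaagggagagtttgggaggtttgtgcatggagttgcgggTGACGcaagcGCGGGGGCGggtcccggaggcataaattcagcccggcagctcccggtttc
Atf3: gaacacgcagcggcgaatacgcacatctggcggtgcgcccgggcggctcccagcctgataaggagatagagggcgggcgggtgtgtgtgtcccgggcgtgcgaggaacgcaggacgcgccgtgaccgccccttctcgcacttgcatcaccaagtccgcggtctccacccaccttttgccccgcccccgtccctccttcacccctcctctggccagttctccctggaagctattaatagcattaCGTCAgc
Zfp36: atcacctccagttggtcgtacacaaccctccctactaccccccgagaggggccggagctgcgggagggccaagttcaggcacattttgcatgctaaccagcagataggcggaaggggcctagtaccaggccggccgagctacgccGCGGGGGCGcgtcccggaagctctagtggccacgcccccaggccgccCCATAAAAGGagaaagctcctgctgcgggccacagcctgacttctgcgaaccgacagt
Dusp1: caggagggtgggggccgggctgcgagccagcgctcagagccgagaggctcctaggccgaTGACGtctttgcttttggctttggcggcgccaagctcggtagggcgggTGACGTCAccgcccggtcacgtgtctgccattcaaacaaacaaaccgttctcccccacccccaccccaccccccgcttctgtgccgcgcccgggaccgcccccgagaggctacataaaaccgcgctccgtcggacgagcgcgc

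Both strands were searched for the cAMP response element (TGACGTCA, which CREB and ATF proteins bind), its core (TGACG, also contained in the whole), the AP-1 site (TGANTCA), the EGR site (GCGNGGGCG), the heat shock element (GAANNTTC) and the CArG box of serum response factor. Sequence beyond the 250 bases was not searched, so a motif missing here, such as a CArG box at Fos, may lie further upstream. The Fos window held 2 cores of the cAMP response element, 129 to 125 and 66 to 62 bases before the start. The whole cAMP element stood 12 to 5 bases before the start of Ppp1r15a and 143 to 136 bases before that of Dusp1. Zfp36 had a CArG box 58 to 49 bases and an EGR site 105 to 97 bases before its start, and Fosb had an EGR site (50 to 42) next to the core of the cAMP element (60 to 56). Of the 8 protein-coding genes with the smallest adjusted p-values (those under 0.1), 6 had the core, against 28.7% of the 8447 tested genes with a promoter in the table and 17.9% of all 27025 promoters. The whole element was in 2 of the 8 (2.98% and 1.62%), the EGR site in 3 (8.87% and 4.65%), the AP-1 site in 1 (3.78% and 6.87%), the CArG box in 1 (1.03% and 1.4%) and the heat shock element in 0 (5% and 6.78%). These genes were picked by their values, so the counts are a description, and a match is not a binding site.

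Fos was at 615, 324, 299.5, 283 and 243 TPM in the Fos-high lymphomas, in the order listed above, which is kept for all values below. In the Fos-low lymphomas it was at 39.6, 35.7, 35.4, 12.5 and 8.60 TPM. Of the 9 between, mesenteric node cr T35, just outside the high group, had 173 TPM, and mesenteric node cr T1, just outside the low group, had 41.6 TPM. Resting B cells had 317 to 819.8 TPM and LPS-treated cells 1.92 to 6.03 TPM, so the Fos-high lymphomas overlapped the resting cells and all Fos-low ones lay above the LPS-treated cells. Fos (ENSMUSG00000021250) lies on chromosome 12, 85473890 to 85477273 of GRCm38.

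**Figure D1:**
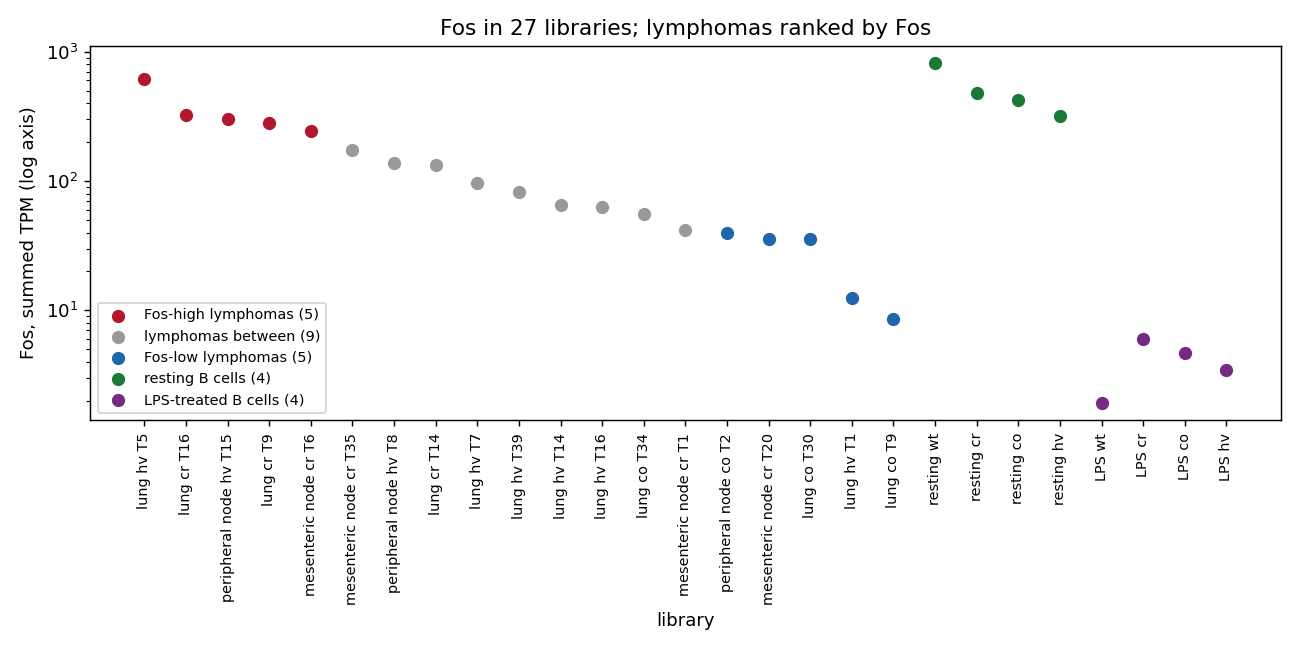
Summed Fos TPM on a log axis (y) in each of the 27 libraries (x), with lymphomas in falling order of Fos and coloured by group. The lymphoma values run from 615 to 8.60 TPM, with 243 and 173 TPM at the upper edge and 41.6 and 39.6 TPM at the lower one, and the resting libraries reach 819.8 TPM.

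The groups were alike in site, with 3 lung, 1 peripheral and 1 mesenteric node lymphoma each, but not in line. The Fos-high group held 2 hv, 3 cr and 0 co lymphomas, and the Fos-low group 1 hv, 1 cr and 3 co (Fisher's exact p = 0.167 for co, two-sided). Sample names were written with joined parts for the lung lymphomas of both groups and with separated parts for the node lymphomas, so within these 10 this style, a possible batch, equals site. Read pairs, estimated from the steps between low TPM values, numbered 11531400 to 32032600 over all samples, with a median of 21464200. None of 7 library measures (depth, shares of mitochondrial, haemoglobin, immunoglobulin constant, Gm20594 and Gm10800 RNA, and genes detected) separated the groups, with adjusted p of 0.589 to 0.667 by exact two-sided permutation tests (n = 5 and 5). The smallest p this design allows is 0.00794. Mesenteric node cr T6 stood apart with 3.08% of the repeat-like Gm10800. The B-cell receptor subunit gene Cd79a, a B-cell marker, was at 211 to 547 TPM in these 10.

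A single named gene, Ppp1r15a, rose with Fos by the test used. It encodes GADD34, a regulatory subunit that directs protein phosphatase 1 to the initiation factor eIF2α and so restores translation after stress. It was at 58.7, 78.5, 124, 72.0 and 104 TPM in the Fos-high lymphomas and at 23.3, 13.1, 20.5, 17 and 13.4 TPM in the Fos-low ones. Every Fos-high value exceeded every Fos-low value, with means of 87.3 ± 26.1 and 17.5 ± 4.45 TPM (SD, n = 5 each). The difference was 2.24 ± 0.25 on the log2(TPM + 1) scale (SE; limma, Benjamini-Hochberg adjusted p = 0.0131 over 11451 genes). The gene (ENSMUSG00000040435) spans chromosome 7, 45522916 to 45526268, minus strand. The call was lost with line as a term (adjusted p = 0.493, difference 2.43), within the hv and cr lymphomas (0.265, 2.42), within the lung lymphomas (0.234, 1.99) and within the node lymphomas (0.755, 2.62). It was also lost with median-of-ratios scaling (0.0858), with no filter on low values (0.0615), with 4 lymphomas a group (0.114) and without lung cr T16 (0.0647), mesenteric node cr T6 (0.0609), mesenteric node cr T20 (0.0625) or lung co T9 (0.0689).

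Over all genes, 2 of 11451 passed an adjusted p of 0.05, which is 0.0175%, and both were higher in the Fos-high lymphomas. The other was an unnamed pseudogene (ENSMUSG00000103671, chromosome 11, 44617317 to 44617773), mentioned after its values were seen. It was at 2.92 to 10.7 TPM in the Fos-high and 0 to 0.984 TPM in the Fos-low lymphomas, and at 0 in all 8 non-malignant samples (difference 2.72 ± 0.36, limma adjusted p = 0.0413). Every Fos-low value was under 1 TPM, so this pseudogene passed the filter through the Fos-high group alone. Its call is therefore a description only. It was called in 7 of the 25 alternatives that tested it. No gene was called lower by limma, although 593 genes had an unadjusted p under 0.05, of which 346 were higher and 247 lower. Of all genes, 71 (0.62%) had every Fos-high library above every Fos-low one, and 49 (0.428%) the reverse. The median difference of all tested genes was 0.05, with 55.6% above 0. Of the 10 genes with an adjusted p under 0.1, all were higher: 8 protein-coding genes and 2 pseudogenes.

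Among the 13 AP-1 genes other than Fos, 11 were tested, 0 were called and 10 had a difference above 0, with a median of 1.53 against 0.05 for all genes. No overlap between the groups was seen in 4 (Fosb, Atf3, Maff and Jund), beside 0.62% of all genes. AP-1 genes share a pathway with the Fos that chose the groups, so this count is not independent of the choice. Fosb, encoding the closest relative of FOS, was at 45.2, 78.3, 131, 66.9 and 44.2 TPM in the Fos-high and at 15.3, 6.37, 11.2, 5.82 and 1.13 TPM in the Fos-low lymphomas (difference 3.22 ± 0.50, adjusted p = 0.0632). Its lowest Fos-high value was thus well above its highest Fos-low value.

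Atf3, a stress-induced member of the family, had the largest difference of the list. It was at 10.3, 19.6, 169, 50.1 and 93.2 TPM in the Fos-high lymphomas and at 1.17, 2.98, 1.27, 0.890 and 0.935 TPM in the Fos-low ones (difference 4.27 ± 0.64, adjusted p = 0.0632). Its order within the Fos-high group was not that of Fos: lung hv T5, with the most Fos, had the least Atf3. Maff, a small MAF partner without a transactivation domain, was at 2.44 to 7.59 against 0.721 to 1.58 TPM (1.53 ± 0.29, adjusted p = 0.255). Jund, a JUN protein present in most resting cells, was at 84.5 to 164 against 37.4 to 83.2 TPM (0.93 ± 0.26, adjusted p = 0.894).

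Junb, encoding a JUN protein that can restrain proliferation, was at 242, 301, 300.1, 229.7 and 115 TPM against 106, 41.8, 118, 82.7 and 41.7 TPM (1.65 ± 0.36, adjusted p = 0.495). The groups overlapped there by 1 library each, mesenteric node cr T6 and lung co T30. Jun, the partner of FOS in classical AP-1, was at 53.4, 20.6, 119.8, 12.7 and 27.9 against 11, 3.05, 32.2, 3.94 and 1.76 TPM (2.26 ± 0.73, adjusted p = 0.894), with overlap. Fosl2 differed by 1.53 ± 0.44, Mafk by 0.42 ± 0.22, Batf by 0.40 ± 0.54, Mafg by 0.12 ± 0.20 and Jdp2 by -0.08 ± 0.73. Neither Fosl1, at most 0.0863 TPM in these 10, nor Batf3, at 31.8 TPM in peripheral node hv T15 and at most 2.12 TPM in the others, passed the filter of 1 TPM in 4 libraries.

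The EGR, NR4A and KLF factors are the other large class of immediate early transcription factors. Of 20 listed, 16 were tested, 0 were called (0.0175% of all genes were), and 2 were without overlap (0.62% of all genes). A difference above 0 was seen in 15, beside 55.6% of all genes, and the median was 0.91. These genes share the early response with Fos, so, as for AP-1, the counts are not independent of the choice. The same holds for early genes in the lists below. Klf4, a zinc-finger factor linked to B-cell quiescence, was at 23.6, 16.8, 12.8, 5.74 and 37.7 TPM against 2.89, 1.89, 1.60, 0.812 and 0.345 TPM (2.89 ± 0.46, adjusted p = 0.0632), without overlap. Nr4a1, an orphan nuclear receptor induced by antigen receptor signalling, was at 38, 37.2, 56.5, 36.6 and 21.7 against 14.9, 1.26, 9.62, 13.6 and 1.68 TPM, also without overlap (2.45 ± 0.56, adjusted p = 0.556).

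Egr1, a direct target of the ERK pathway, did not follow Fos as closely. It was at 44.5, 8.86, 78.2, 3.27 and 2.17 TPM in the Fos-high and at 4.69, 0.184, 4.92, 5.58 and 7.81 TPM in the Fos-low lymphomas (1.54 ± 0.91, adjusted p = 0.894). Lung cr T9 and mesenteric node cr T6 had less Egr1 than 4 of the 5 Fos-low libraries. Klf2, which maintains lymphocyte quiescence and trafficking, differed by 1.55 ± 0.33 (adjusted p = 0.415), and Klf6 by 1.48 ± 0.54 (adjusted p = 0.894). The early genes Ier5 and Ier2 differed by 0.96 ± 0.40 and 0.54 ± 0.47 (adjusted p = 0.894 and 0.905).

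**Figure D2:**
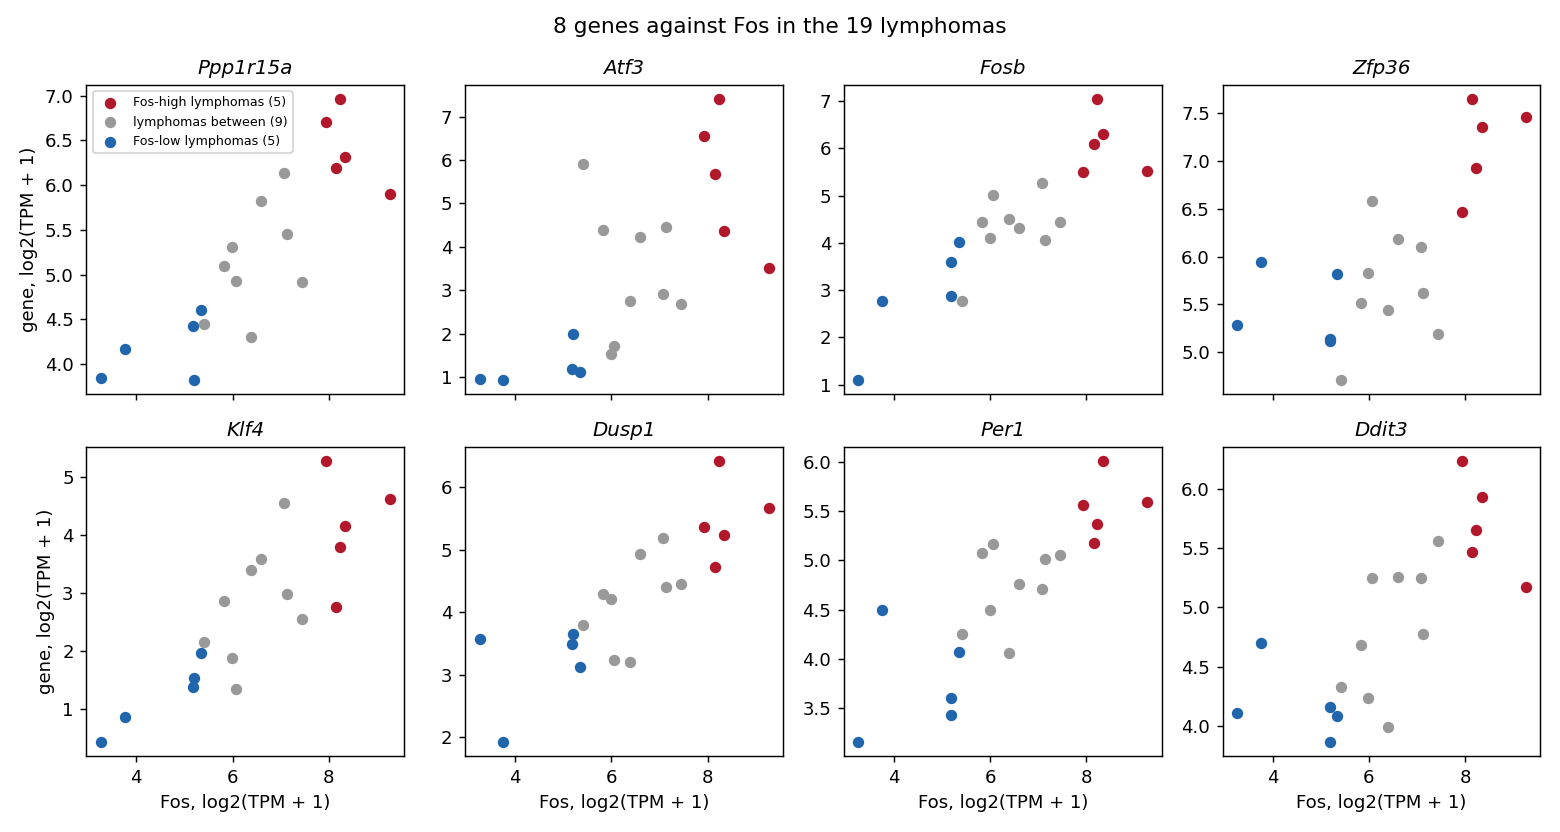
Level of 8 genes, log2(TPM + 1) (y), against Fos, log2(TPM + 1) (x), in the 19 lymphomas, with groups in colour. Fos-high points lie above all Fos-low points in every panel, while the 9 lymphomas between are spread, most widely for Atf3 (1.89 to 59.1 TPM).

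Ppp1r15a belongs to a list of early genes that limit RNA or cell growth. All 16 of its members were tested and 16 had a difference above 0, beside 55.6% of all genes, with a median of 0.74. Ppp1r15a was the 1 called, beside 0.0175% of all genes. Zfp36, encoding the mRNA decay factor tristetraprolin, was at 175, 162, 121, 199.5 and 87.2 TPM against 55.4, 34.2, 33.8, 60.4 and 38.1 TPM (1.71 ± 0.26, adjusted p = 0.0632). The groups did not overlap, and the gene was singled out after its values were seen.

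Dusp1 stood alone among the phosphatases that switch off MAP kinases. This nuclear enzyme acts on p38, JNK and ERK, and its mRNA was at 49.8, 36.9, 85.0, 25.5 and 40.2 TPM in the Fos-high and at 7.68, 11.5, 10.2, 2.78 and 10.9 TPM in the Fos-low lymphomas (2.34 ± 0.38, adjusted p = 0.0715). The groups did not overlap. Of 11 listed phosphatases 9 were tested and 5 had a difference above 0, with a median of 0.52 that ran from -0.0997 to 0.533 over 27 alternatives. Dusp5, an ERK-specific nuclear phosphatase, was at 112, 53.2, 8.47, 90.3 and 72.1 against 23.3, 36.9, 10.3, 26.4 and 25.4 TPM (1.14 ± 0.61), and its low value was that of peripheral node hv T15. Dusp6, which acts on cytoplasmic ERK, had its highest value, 114 TPM, in the Fos-low lung co T9 (0.52 ± 0.62), and Dusp2 differed by 0.63 ± 0.34 (adjusted p = 0.939 and 0.894).

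Other outputs of ERK varied more. Of 15 listed genes 10 were tested, with a median of 0.32, and Rgs1, a regulator of G protein signalling, was the 1 without overlap, beside 0.62% of all genes. The list's median ran from -0.0393 to 0.721 over 27 alternatives. Rgs1 was at 20.1, 379, 33.5, 57.9 and 203 TPM against 1.68, 12.6, 1.42, 12.6 and 17.4 TPM (3.44 ± 0.87, adjusted p = 0.874). The 26 genes of the MAP kinase cascade itself were all tested, 17 had a difference above 0 with a median of 0.09, none was without overlap, and the largest difference was that of Rasgrp1, a RAS activator in lymphocytes (0.91 ± 0.40, adjusted p = 0.894).

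Per1 was the closest follower among genes of cAMP and calcium signals. This circadian gene was at 47.5, 63.7, 40.4, 35.1 and 46.3 TPM against 15.8, 11.1, 9.76, 21.6 and 7.87 TPM, without overlap (1.80 ± 0.27, adjusted p = 0.0632). Sik1, a kinase that feeds back on CREB, was at 71.1 to 103 against 14.3 to 79.0 TPM, with only lung co T30 inside the Fos-high range (1.33 ± 0.36, adjusted p = 0.894). Of this list 13 of 14 tested genes had a difference above 0, with a median of 0.31. Of the B-cell receptor components 19 of 25 had one, with a median of 0.31 and Malt1, a scaffold protease of this pathway, at 0.67 ± 0.25 (adjusted p = 0.894). Of the NF-kappaB feedback genes 13 of 18 did, with a median of 0.14 and Nfkbid at 1.02 ± 0.51 (adjusted p = 0.894). B-cell activation genes had a median of -0.09 with 5 of 11 above 0, and the activation antigen genes Cd86 and Cd69 differed by 1.19 ± 0.69 and 0.55 ± 0.58 (adjusted p = 0.894 and 0.929). The medians of these last 2 lists changed sign over 27 alternatives, from -0.171 to 0.815 for NF-kappaB feedback and from -0.263 to 1.01 for activation.

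Genes of the heat shock response, which misfolded protein sets off through HSF1, had no common direction. Of 20 listed genes 19 were tested, and 8 had a difference above 0, beside 55.6% of all genes, with a median of -0.05. Among them 0 were called and 0 were without overlap, beside 0.0175% and 0.62% of all genes. At such shares a count of 0 is usual for a list of this size, so these counts do not set the list apart. The inducible chaperone gene Hspa1b was at 1.97, 2.56, 4.06, 4.42 and 0.583 TPM against 3.35, 1.34, 0.782, 1.07 and 0.886 TPM (0.54 ± 0.39), and Hspa1a at 0.375 to 1.92 against 0.267 to 1.31 TPM (0.46 ± 0.29; adjusted p = 0.894 for both). In resting B cells the same genes were at 19.4 to 58.6 and 9.70 to 44.4 TPM, above all 10 lymphomas. The co-chaperone gene Dnajb1 was at 22.7 to 49.6 against 23.4 to 32.7 TPM (0.14 ± 0.22, adjusted p = 0.948). The abundant constitutive chaperones Hspa8 and Hsp90aa1 differed by -0.05 ± 0.25 and -0.20 ± 0.28 (adjusted p = 0.983 and 0.941), values whose sign changed with the setting. The largest difference of the list was that of Dnajb4 (1.41 ± 0.42, adjusted p = 0.894). Hspa1a, Hspa1b, Bag3, Hspb1 and Dnajb4 stayed above 0 in every alternative that tested them. Hsp90ab1, Hspe1, Hspd1, Chordc1 and Stip1 stayed below 0, and none of these genes was called in any.

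A similar split ran through the ATF4 and unfolded protein response list, whose 24 tested members had a median of -0.03 with 12 above 0 (-0.129 to 0.129 over 27 alternatives). The list did not hold Ppp1r15a or Atf3, stress-related genes described above, which were counted in other lists. Ddit3, encoding the stress factor CHOP, was at 35, 60.0, 49.3, 43.3 and 74.3 TPM against 16, 16.9, 13.6, 25 and 16.2 TPM, without overlap (1.51 ± 0.24, adjusted p = 0.0632). Dnajb9, an endoplasmic reticulum co-chaperone, differed by 1.30 ± 0.33 (adjusted p = 0.808). The amino acid synthesis genes Asns and Psat1, which ATF4 activates, had differences of the other sign, -1.51 ± 1 and -0.89 ± 0.38 (adjusted p = 0.894 for both). Oxidative stress genes had a median of -0.09, with 4 of 13 above 0.

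**Figure D3:**
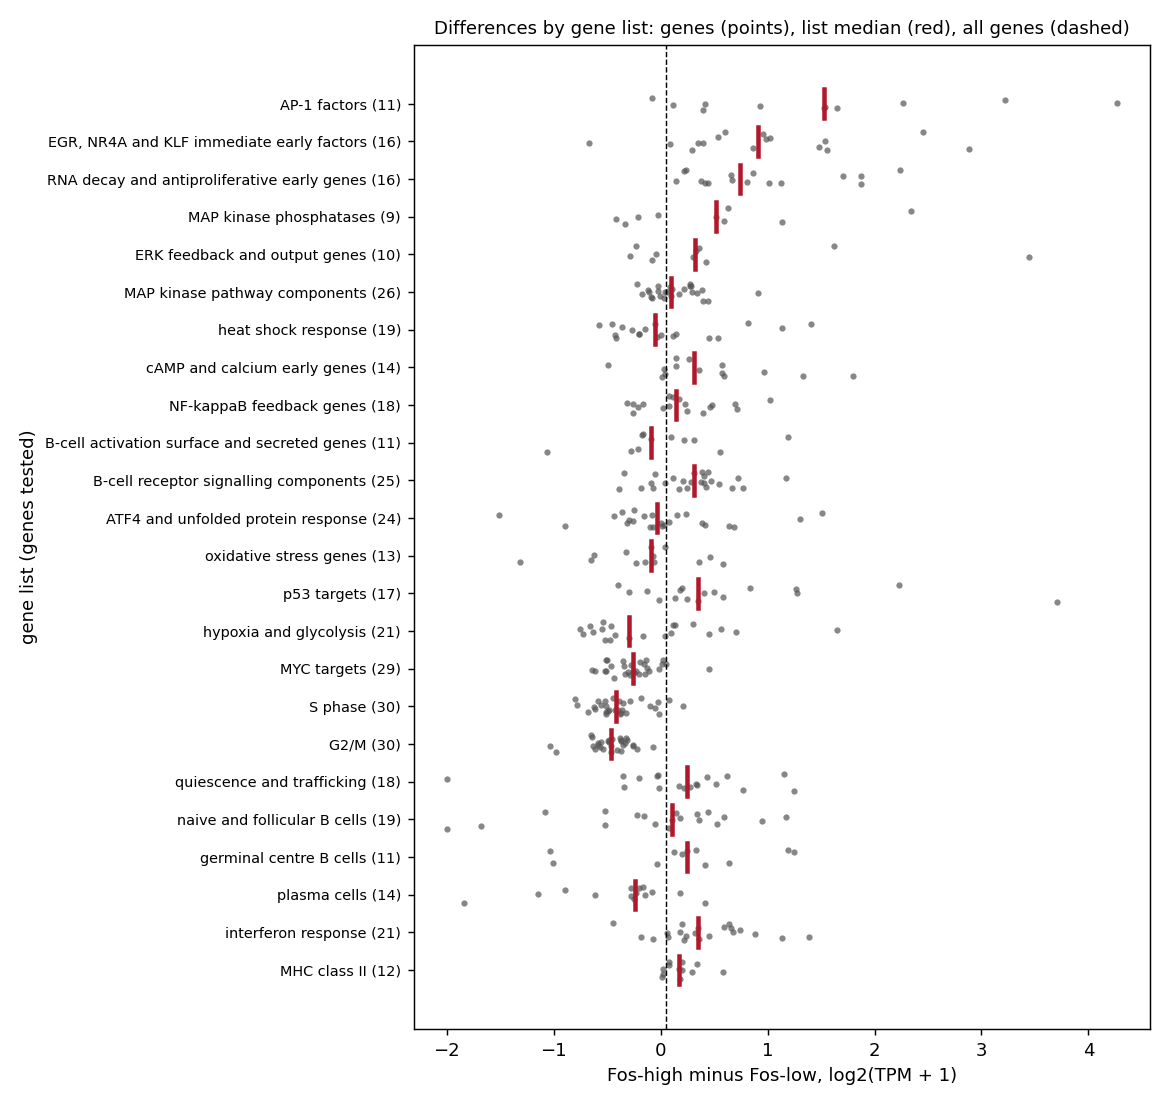
Fos-high minus Fos-low difference, log2(TPM + 1) (x), of each tested gene (points) in 24 lists (y, with the number tested), with list medians in red and the median of all genes dashed at 0.05. AP-1 factors have the highest median, 1.53, and the G2/M list the lowest, -0.46.

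Genes of the cell cycle and of growth had mostly lower values in the Fos-high lymphomas. None passed the test, the differences depended on single libraries, and the library with the most Fos went the other way. All 30 genes of the G2/M list had a difference below 0 (median -0.46), as did 28 of 30 S phase genes (median -0.41) and 25 of 29 MYC targets (median -0.25). Ccnb1, the mitotic cyclin, was at 102, 43.6, 25.8, 87.9 and 73.5 TPM against 122, 110.2, 99.5, 119.9 and 146 TPM (-0.98 ± 0.33, adjusted p = 0.894). Cdk1, its kinase, was at 180.0, 129, 15.9, 131 and 102 against 181, 148, 159, 189 and 236 TPM (-1.04 ± 0.54, adjusted p = 0.894). Peripheral node hv T15 was the lowest of the 10 in both. Without it the medians were -0.17 for G2/M (24 of 30 below 0), -0.07 for S phase (21 of 30) and -0.12 for MYC targets (21 of 29), while that of the AP-1 list was 1.54. Lung hv T5, with the most Fos, had the highest summed S phase (4124 TPM) and G2/M (2967 TPM) levels of the 19 lymphomas. Without lung hv T5 the medians were -0.707 for S phase, -0.628 for G2/M and -0.265 for MYC targets. Within the 6 lung lymphomas the S phase median was 0.06, with 11 of 30 below 0, and within the 4 node lymphomas it was -1.13.

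Since no gene was called lower, the 5 with the smallest p-values in that direction are given as uncalled. Dcun1d5, a cofactor of cullin neddylation, was at 56.8 to 71.1 against 91.5 to 121 TPM (-0.70 ± 0.16, adjusted p = 0.498). Gapdh, the glycolytic enzyme often used as a reference gene, was at 857, 858, 498, 882 and 856 TPM against 1149, 1198, 1347, 1200.0 and 1517 TPM (-0.72 ± 0.20). Rnaseh2b, a subunit of the nuclease that removes RNA from DNA, differed by -0.75 ± 0.21, Sssca1 by -0.75 ± 0.21 and Leprotl1 by -1.27 ± 0.36 (adjusted p = 0.894 for these 4). In 4 of the 5 the groups did not overlap, beside 0.428% of all genes. The choice by smallest p-values favours such genes, so this count is a description only. Sssca1 was at 28.6 TPM in the Fos-low lung co T9 and at 32.6 TPM in the Fos-high lung hv T5. In the S phase list only Mcm10, a replication initiation factor, was without overlap (10.6 to 29.6 against 30.3 to 42.3 TPM, -0.78 ± 0.26, adjusted p = 0.894). Summed hypoxia and glycolysis genes were at 2539 to 3567 against 4035 to 5000 TPM, and at 2597 to 5920 TPM in the lymphomas between. Of 21 tested, 0 were called, 12 were below 0 (median -0.295) and 2 were lower without overlap, beside 0.428% of all genes. With line as a term the median was 0.131, with 8 below 0.

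**Figure D4:**
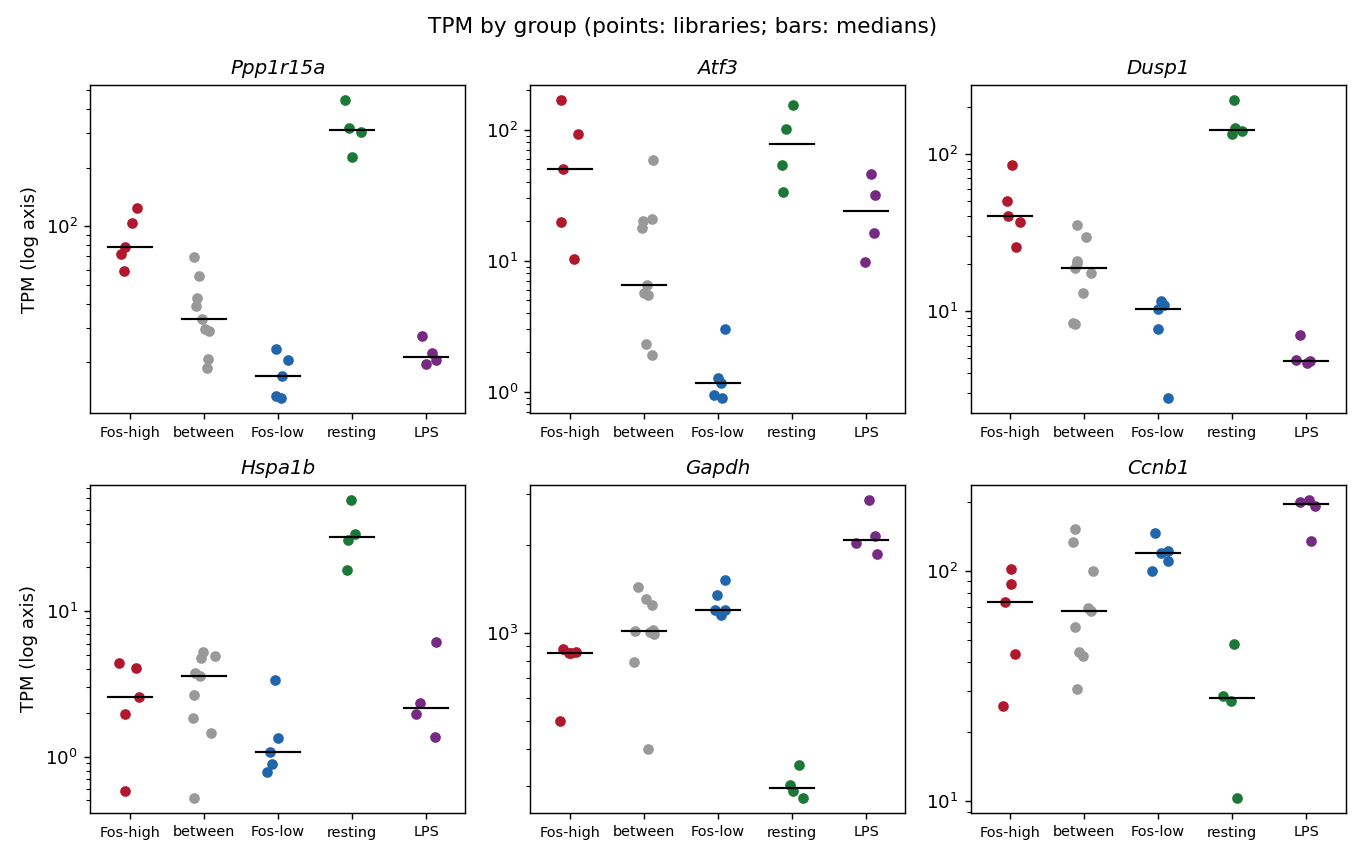
TPM on a log axis (y) of 6 genes in the 5 groups of libraries (x), with each library as a point and group medians as bars. Ppp1r15a, Atf3 and Dusp1 are higher in the Fos-high than in the Fos-low libraries, Hspa1b overlaps (0.583 to 4.42 and 0.782 to 3.35 TPM), Gapdh is lower in every Fos-high library, and Ccnb1 overlaps (25.8 to 102 and 99.5 to 146 TPM).

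The 9 lymphomas between, which the choice of groups did not use, allowed the same question over a narrower range of Fos, 41.6 to 173 TPM. With log2 Fos as the predictor, 0 of 11771 genes (0%) had a slope with an adjusted p under 0.05 by limma, and 425 had an unadjusted p under 0.05; with median-of-ratios scaling 0 and 422 did. The scaling mattered there: the median slope of all genes was -0.13 as deposited, with 30.8% above 0, and -0.0069 after scaling, with 49.0% above 0. In mesenteric node cr T35, the one with the most Fos, Gm20594 took 34.3% of the TPM, against 13.7% to 21.2% in the other 8. Of the 10 genes with an adjusted p under 0.1 between the groups, 8 had a slope above 0 on both scales, and the rest did not. Slopes are given here for only some of the 10. The slopes per log2 unit of Fos were 0.72 ± 0.42 for Klf4, 0.51 ± 0.30 for Dusp1, 0.51 ± 0.31 for Fosb, 0.48 ± 0.24 for Ddit3 and 0.41 ± 0.27 for Ppp1r15a (SE, n = 9). None of these passed (adjusted p = 0.986 for each).

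Atf3 went against this, with a slope of -0.50 ± 0.66. The highest Atf3 value of the 9 lymphomas, 59.1 TPM, was in mesenteric node cr T1, the one with the least Fos. The wider set without overlap was not mirrored: of the 71 genes higher in every Fos-high library, 26 had a slope above 0 in the 9 others (33 after scaling), and of the 49 lower ones, 29 had a slope below 0 (19 after scaling). Of 12 AP-1 genes tested there 4 had a slope above 0, and 6 of 11 after scaling. Of the 30 G2/M genes 11 had a slope above 0, and 17 after scaling.

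In the non-malignant samples Ppp1r15a, Dusp1, Fosb and Zfp36 were, like Fos, higher in resting than in LPS-treated cells, given as levels only. Resting cells had 226 to 446 TPM of Ppp1r15a, 133 to 221 of Dusp1, 61.2 to 154 of Fosb and 183 to 343 of Zfp36. LPS-treated cells had 19.5 to 27.2, 4.66 to 7.01, 0.591 to 1.35 and 10.9 to 21.1 TPM in that order. For Ppp1r15a and Dusp1 the Fos-high lymphomas lay between the resting and the LPS-treated cells. The levels did not all follow Fos, since LPS-treated cells, low in Fos, had 9.79 to 45.9 TPM of Atf3, above every Fos-low lymphoma. For Ppp1r15a the LPS-treated cells overlapped the Fos-low lymphomas, which had more Fos. The summed AP-1 genes other than Fos were at 251 to 516 TPM in LPS-treated cells and at 119 to 333 TPM in the Fos-low lymphomas.

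Markers of other cells were low but not absent, and some moved with the groups. In bulk RNA, fewer cells of a type and less RNA per cell cannot be told apart. The summed fibroblast markers (10 genes) were at 84.1, 58.3, 69.6, 8.28 and 14 TPM in the Fos-high and at 12.4, 5.03, 17.3, 35.5 and 8.93 TPM in the Fos-low lymphomas, and 6 of 6 tested had a difference above 0, led by Col3a1 (2.07 ± 0.76, adjusted p = 0.894). Macrophage markers overlapped (12.8 to 177 against 12.1 to 242 TPM), as did neutrophil markers (8.99 to 161.5 against 2.93 to 33.2 TPM), T-cell markers (4.11 to 52.7 against 4.45 to 125 TPM) and erythroid markers (37.3 to 219 against 21.0 to 133 TPM). The summed lung epithelium markers reached 517 TPM in peripheral node hv T15, of which Krt18, a keratin, made up 510.5, while the surfactant gene Sftpc was at 0 there and in 7 of the other 9, and at most 0.225 TPM. What part these cells or the preparation of the samples had in the differences was not tested, and no library measure of preparation is in the labels.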

How the data were processed

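The deposited table gives TPM (abundances corrected for transcript length and library size) per transcript, which the authors estimated with kallisto 0.43 on mm10, per the submitters' processing notes. The libraries were stranded, paired-end and rRNA-depleted, per the labels' protocols. TPM of 88198 transcripts were summed to 30735 genes. Read counts could not be recovered, since 61.0% to 76.4% of values came out whole within 0.02. Depth was estimated at 11531400 to 32032600 read pairs.

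The 19 lymphomas were ranked by Fos, and 5 were compared with 5 by limma 3.58.1 (trend and robust settings, R 4.3.3) on log2(TPM + 1), which understates changes of low genes. Genes needed a TPM of at least 1 in 4 libraries, and p-values were adjusted by Benjamini-Hochberg over all genes tested, with a threshold of 0.05. The 9 other lymphomas were fitted with log2 Fos as the predictor. Library measures were compared by exact permutation tests (scipy 1.17.1). The limma step was tested on simulated data. Groups, members and lists were chosen with earlier results of these data known.

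Genes were named by rule: the called genes without overlap and with a mean TPM of at least 5, at most 10 a direction, or the 5 smallest p-values where none was called. Members of the AP-1, EGR, phosphatase and heat shock lists, and up to 4 of each other list, could also be named. Alternatives were other pseudocounts, filters, scalings, group sizes, terms for site, name style and line, subsets, and each library left out. A list of 12 long noncoding RNAs was not analysed here. The 1 lung lymphoma titled hv but described as CO lay among the 9 between.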

Additional observations from a re-analysis of the deposited data

Results flagged for a closer look

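Within groups, 8 of 75 sets of 5 or 9 values held a library whose gap to its nearest neighbour was large for the range of the group (Dixon's 95% critical values), and chance gives about 1 in 20. In the Fos-high lymphomas, Gapdh was lowest in peripheral node hv T15 at 498.3 TPM and Junb was lowest in mesenteric node cr T6 at 114.7 TPM. In the Fos-low lymphomas, Rnaseh2b was highest in peripheral node co T2 at 74.25 TPM and Atf3 was highest in mesenteric node cr T20 at 2.981 TPM. Sssca1 was lowest in lung co T9 at 28.55 TPM, and Fosl2 was highest in lung hv T1 at 3.385 TPM. Of the 9 lymphomas between, mesenteric node cr T35 had the lowest Gapdh, 400.1 TPM, and mesenteric node cr T1 the lowest Fosb, 5.792 TPM.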

How the results depend on the processing

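The count of 2 called genes was 1 with a pseudocount of 5 or TPM rescaled without the abundant genes, 3 with site or name style as a term, 4 with 6 lymphomas a group, 5 with a slope over all 19, 7 with all 19 in 3 groups and 8 with a filter of TPM 5 in 4 libraries. It was 0 with no filter (946 genes at an unadjusted p under 0.05), median-of-ratios scaling (736), line as a term (371), 4 lymphomas a group (470), lung lymphomas only (341), and in 3 subsets chosen after seeing the data: hv and cr only (210), joined names (341) and separated names (520). It ran from 0 to 3 when 1 library was left out, being 0 without lung cr T16, mesenteric node cr T6, mesenteric node cr T20 or lung co T9. Every call was higher in the Fos-high lymphomas. No slope over the 9 others was called in any alternative.

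Of 144 tested genes that could be named, only 65 of those described above were followed here. Some of the others changed sign more often, as Ahsa1 in 10 of 28 alternatives and Dusp10 in 7. Of the 65 genes, 8 changed sign, in 21 of 1799 values. Mafg was at -0.0119 with line as a term and -0.0141 within hv and cr. Jdp2 was at 0.0159 as a slope over 19, and ran from -0.5867 to 0.3919 with 1 library left out. Dusp2, Dusp5 and Dnajb1 were at -0.1282, -0.2062 and -0.0359 within separated names, and Dusp6 at -0.0421 as a slope over 19. Dnajb1 ran from -0.0288 to 0.2447 and Hspa8 from -0.205 to 0.068 with 1 library left out. Hspa8 was at 0.0044 without the abundant genes and 0.2814 within separated names, and Hsp90aa1 at 0.1027 with 4 a group and 0.1753 within lung or joined names. The cause was not tested. No paired analysis was possible because the groups were formed by measured Fos and share no replicate numbers from the labels. Depth cannot be turned into counts here, so no counting error is given.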

Other observations

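No gene of the lists described next passed limma's adjusted threshold. The interferon response list had 18 of 21 tested genes above 0 with a median of 0.35, with Irf7, a transcription factor of that response, at 1.39 ± 0.58 (adjusted p = 0.894). Its median was 0.0817 without lung hv T5 (12 of 20 above 0), 0.122 without peripheral node hv T15 (11 of 20) and 0.147 without peripheral node co T2 (14 of 21). Within the lung lymphomas it was -0.099 (7 of 20). All 12 MHC class II genes had a difference above 0 with a median of 0.18, but without peripheral node hv T15 only 2 of 12 did, with a median of -0.322. Their summed level was 14260 TPM in that library and 2978 to 3425 TPM in the other 4 Fos-high ones. The MHC class II median was -0.364 within the lung lymphomas (1 of 12 above 0) and 0.113 with median-of-ratios scaling (9 of 12). It was also under 0.1 without peripheral node co T2 (0.0513), lung hv T1 (0.0849) or lung co T9 (0.0934), and was 0.289 without lung cr T9 and 0.283 without lung co T30. The interferon median was 0.689 and 0.686 without lung cr T9 and mesenteric node cr T6, and 0.589 without lung co T30. The plasma cell list had 12 of 14 below 0 with a median of -0.24, led by the surface receptor gene Slamf7 (-1.83 ± 0.81, adjusted p = 0.894). Quiescence and trafficking genes had a median of 0.25, with Pik3ip1, an inhibitor of PI3 kinase, at 1.25 ± 0.43 and S1pr1, a lymphocyte egress receptor, at 1.15 ± 0.43 (adjusted p = 0.894 for both).

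Ddit3, the nearby Mbd6 and the more distant R3hdm2 on chromosome 10 were each higher in every Fos-high than in every Fos-low library. That held for 0.62% of all genes. These genes were picked after their values were seen, and other genes of the region are not described. Mbd6 spans 127281956 to 127289018 and R3hdm2 127380327 to 127499384, on either side of Ddit3 at 127290774 to 127296288. The differences were 1.51 ± 0.24 for Ddit3, 0.95 ± 0.26 for Mbd6 (adjusted p = 0.894) and 0.88 ± 0.21 for R3hdm2 (adjusted p = 0.559), so limma called none of them.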
